A study of Mus musculus with 6 samples.

Results

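Eicosanoid synthesis enzymes are the proteins that turn arachidonic acid into leukotrienes, hydroxy fatty acids, prostaglandins and thromboxane. They were followed here as 10 genes (Alox15, Alox12, Alox5, Alox5ap, Lta4h, Ltc4s, Ptgs1, Ptgs2, Ptges and Tbxas1), and every probe that the array annotation assigns to one of these symbols was taken. That gave 17 probes among the 56605 probes of the array, and 10 of its 24348 named genes. Of these genes 6 have more than 1 probe and 4 have 1. Probes of the same gene are not replicates, and some are annotated to different transcripts of it, as for Ptgs1 and Tbxas1. The genes were chosen on the levels and group differences that these same arrays gave for MOTS-c against vehicle, so their differences are described and not tested.

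The tissue was spleen of female NOD mice, an inbred strain that develops autoimmune diabetes spontaneously. Mice arrived at 6 weeks of age and were injected intraperitoneally every day in the morning. The MOTS-c group received 0.5 mg/kg/day of MOTS-c, which is a peptide that the mitochondrial genome encodes, and the vehicle group received a scrambled version of the peptide, for which the labels state no dose. Spleens were collected at 18 weeks after a fast of 16 to 18 h, and total RNA was hybridised to 1-colour Agilent arrays, 3 for MOTS-c and 3 for vehicle. No transgene or deletion is named for either group, and the labels do not say whether a sample is a single mouse or a pool.

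In the eicosanoid pathway, phospholipases free arachidonic acid from membranes, and the acid then enters competing branches. Lipoxygenases add oxygen to it: Alox5, with its helper protein Alox5ap, starts leukotriene synthesis, whereas Alox12 and Alox15 make hydroxy fatty acids. The cyclooxygenases Ptgs1 and Ptgs2 make the prostaglandin precursor from which terminal enzymes such as Ptges and Tbxas1 form prostaglandin E and thromboxane. In a spleen these enzymes are known from myeloid cells and platelets, and deletion of Alox15 has been reported to protect NOD mice from diabetes.

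A probe's level is given as log2 of its processed signal minus log2 of the 75th percentile of the same array, so that 0 is the brightness of that percentile. Levels of different probes cannot be set against each other. Differences are MOTS-c minus vehicle on that log2 scale, with the standard error of limma. The 75th percentile was 900 to 926 on the MOTS-c arrays and 678 to 852 on the vehicle arrays, 61.8% to 64.0% of spots were well above background, and 0 were saturated. With 3 arrays a group, the number of arrays limits the precision. Vehicle 1 and vehicle 2 lay on slide 1, and vehicle 3 lay on slide 2 with the 3 MOTS-c arrays, so a comparison within slide 2 rests on vehicle 3 alone. All 8 B cell markers, all 8 T cell markers and all 12 markers of red pulp macrophages and monocytes were well above background on each of the 6 arrays. Vehicle 1 stood apart, with the lowest B cell and T cell markers (mean deviations of -1.29 and -1.48 from the 6-array mean) and the highest erythroid markers (1.02). Vehicle 3 held far more pancreatic acinar RNA than the other arrays, with a summed marker level of 233 against 5.86 to 20.2 elsewhere. In whole spleen, fewer cells of a type and less RNA per cell cannot be told apart.

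Alox15 was the enzyme with the widest gap between the groups, and most of the others overlapped. Alox15 encodes the leukocyte-type lipoxygenase, known in mice from resident peritoneal macrophages and eosinophils. Its single probe had levels of -3.17, -3.80 and -3.02 in the MOTS-c samples, against -5.28, -6.59 and -5.50 in the vehicle samples. The authors' deposited table leaves this probe out. Its sequence and position are not given, so runs shared with other probes could not be sought. All 3 MOTS-c values lay above all 3 vehicle values, and the nearest pair, MOTS-c 2 and vehicle 1, was still more than a log2 unit apart. The processed signal was 102, 64.7 and 114 with MOTS-c and 17.5, 8.75 and 18.9 with vehicle. The vehicle signals were thus near the detection limit: the lowest signal well above background was 15.6, 19.3 and 15.8 on vehicle arrays 1, 2 and 3, and vehicle 2 fell below it. The mean level was -3.33 ± 0.41 with MOTS-c and -5.79 ± 0.70 with vehicle (SD, n = 3 each), a difference of 2.46 ± 0.37 (SE), or 5.49-fold. With vehicle 2 set to its detection limit, the difference was 2.08, or 4.21-fold.

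The Alox15 difference was 2.17 within slide 2 and 2.71 without vehicle 1. A background correction that keeps dim spots off zero (normexp) compressed it to 0.86, still higher with MOTS-c. A difference at least as large in the same direction was found for 22 of the 33734 tested probes, or 0.0652%, and one of 1 log2 unit or more for 2.54%. The members were picked with this difference in view, so that rank supports nothing.

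**Figure D1:**
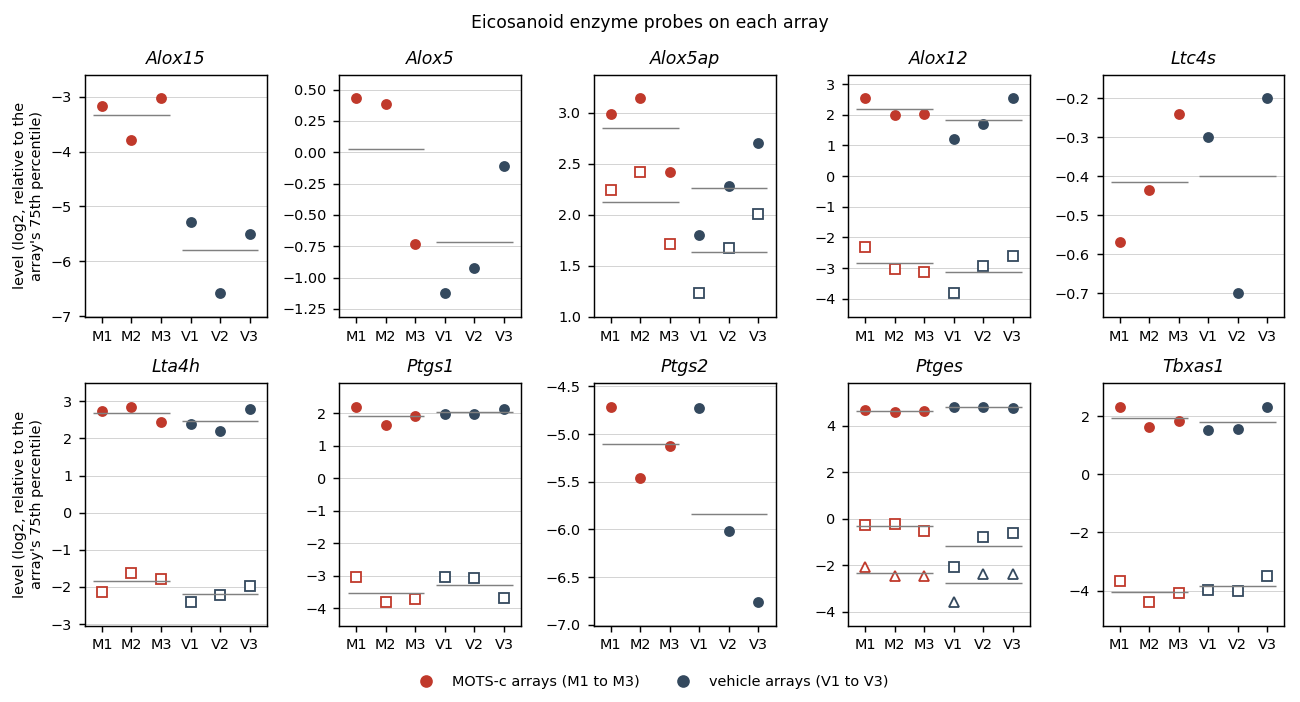
Level of the 10 genes on the 3 MOTS-c arrays (left in each panel) and the 3 vehicle arrays (right), as log2 of signal over the array's 75th percentile. Filled circles are a gene's brightest probe, open squares and triangles its other probes, the short lines are group means, and each panel has its own vertical scale. For Alox15 the MOTS-c points lie between -3.80 and -3.02 and the vehicle points between -6.59 and -5.28, while most other panels show overlapping points.

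Markers of cells known to carry Alox15 were read beside it. Of 10 resident peritoneal macrophage markers, all tested, 7 were higher and 3 lower with MOTS-c, with a median difference of 0.19. The groups did not overlap for Prg4 (difference 1.15 ± 0.15), Icam2 (0.83 ± 0.31) and Timd4 (0.48 ± 0.18), each higher with MOTS-c. Over all tested probes 16.3% were apart in that direction. The lower markers were Cd5l (-0.35 ± 0.26), Lrg1 (-0.015 ± 0.27) and Serpinb2 (-0.015 ± 0.45), each with overlapping groups. Icam2 was lowest on vehicle 1, as were the B cell and T cell markers, and its difference was 0.47 without that array and 0.29 within slide 2. Gata6, the transcription factor that defines these macrophages in mice, differed by 0.12 ± 0.26, with overlapping groups. The summed level of the list was 40.7, 36.6 and 55.4 with MOTS-c and 37.4, 29.3 and 35.3 with vehicle. Like Alox15, this list was highest on MOTS-c 3 and lowest on vehicle 2. The eosinophil, neutrophil, and mast cell and basophil lists were also lowest on vehicle 2. Within the peritoneal macrophage list Saa3 had the widest spread, at 3.83 on MOTS-c 3 and -2.84 on vehicle 2 (difference 2.44 ± 1.30).

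Of 8 eosinophil markers, 7 were higher and 1 lower with MOTS-c, with a median difference of 1.02, which was 0.31 within slide 2. Their summed level was 39.9, 64.2 and 13.6 with MOTS-c and 14.2, 12.9 and 27.6 with vehicle, so the groups overlapped. Of the 8 markers, Il5ra alone had groups that did not overlap (0.45 ± 0.15, higher with MOTS-c), where 16.3% of all tested probes were apart in that direction. MOTS-c 3 had the least eosinophil signal of the MOTS-c arrays and the most Alox15 signal. The part of either cell type in the Alox15 difference was not tested.

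The genes whose levels followed Alox15 most closely over the 6 arrays were Dcun1d3 (Pearson r 0.994), Inpp4a (0.992), Sprr2b (0.990), Vwa5a (0.989) and Acap2 (0.987). Another 2 probes with no gene name, or only a clone name, ranked among them. The 6 points share their arrays and groups, and 428 of 33717 probes had r above 0.9, so these values only describe a pattern that many probes have. Dcun1d3 had levels of 0.49, 0.36 and 0.52 with MOTS-c and -0.25, -0.54 and -0.21 with vehicle, a difference of 0.79 ± 0.15.

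Alox12 encodes the platelet-type lipoxygenase, and Tbxas1 encodes thromboxane synthase, which in platelets makes the aggregating agent thromboxane A. Upstream sequences of both genes are shown because their brighter probes ranked the 6 arrays in exactly the same order, and that of Alox5 for comparison. Each is the 250 bases before the annotated start, written 5′ to 3′ on the gene's strand, from RefSeq on GRCm38.p6. That table holds 8 of the 10 genes. The intervals are chr11:70255371-70255620 (minus strand) for Alox12, chr6:38918736-38918985 (plus strand) for Tbxas1 and chr6:116461179-116461428 (minus strand) for Alox5. Capitals mark the motifs searched on either strand. The TATA box was read as TATAAA and the GC box as GGGCGG. The AP-1 and NF-E2 core was read as TGANTCA. The GATA core was read as AGATAA and the ETS core as GAGGAA.
Alox12: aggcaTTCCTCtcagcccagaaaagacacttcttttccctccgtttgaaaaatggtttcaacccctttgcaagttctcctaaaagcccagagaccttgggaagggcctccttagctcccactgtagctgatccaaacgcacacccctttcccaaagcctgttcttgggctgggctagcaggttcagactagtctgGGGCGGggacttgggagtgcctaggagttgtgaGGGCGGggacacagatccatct
Tbxas1: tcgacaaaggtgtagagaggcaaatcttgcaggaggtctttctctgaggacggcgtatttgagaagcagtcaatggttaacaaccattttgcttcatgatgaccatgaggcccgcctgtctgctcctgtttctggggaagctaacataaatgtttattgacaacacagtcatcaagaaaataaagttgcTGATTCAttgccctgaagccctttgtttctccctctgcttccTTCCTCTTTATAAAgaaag
Alox5: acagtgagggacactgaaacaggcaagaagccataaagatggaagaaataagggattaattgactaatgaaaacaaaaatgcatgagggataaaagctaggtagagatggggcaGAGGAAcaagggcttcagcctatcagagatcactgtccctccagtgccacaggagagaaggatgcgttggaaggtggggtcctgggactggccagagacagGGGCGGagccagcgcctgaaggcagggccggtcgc

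Alox12 held 2 GC boxes, which begin 55 and 22 bases before the start, and 1 ETS core. Tbxas1 held 1 AP-1 and NF-E2 core, 1 ETS core and a TATA box stretch in which TATAAA is read on both strands and overlaps itself. Alox5 held 1 GC box and 1 ETS core. Of the 8 member promoters in the table, 7 held the ETS core, 4 the GC box, 1 the TATA box, 1 the AP-1 and NF-E2 core and 0 the GATA core. Among 32851 promoters of the same length the shares were 23.3% for the ETS core, 32.7% for the GC box, 12.4% for the TATA box, 6.75% for the AP-1 and NF-E2 core and 9.99% for the GATA core. A match is a string of letters and does not show that a factor binds there.

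The brighter Alox12 probe, at chr11:70055715-70055774 of mm9 on the minus strand, had levels of 2.55, 2.01 and 2.01 with MOTS-c and 1.22, 1.69 and 2.54 with vehicle. MOTS-c 1 and vehicle 3 were level with each other at the top, so the groups overlapped. The difference was 0.37 ± 0.34, and within slide 2 it was -0.36. The second Alox12 probe, at chr11:70063629-70063688, had levels of -2.30, -3.03 and -3.12 with MOTS-c and -3.82, -2.92 and -2.62 with vehicle, a difference of 0.30 ± 0.36 that was -0.20 within slide 2. For both probes the direction turned with the choice of vehicle arrays.

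The brighter Tbxas1 probe (chr6:39034356-39034415 of mm9, plus strand) had levels of 2.33, 1.62 and 1.85 with MOTS-c and 1.54, 1.56 and 2.31 with vehicle. The difference was 0.13 ± 0.28 and -0.37 within slide 2. The dimmer Tbxas1 probe was lower with MOTS-c, at -3.66, -4.40 and -4.09 against -3.97, -4.02 and -3.51 with vehicle, by a difference of -0.21 ± 0.24. The 2 Tbxas1 probes therefore had means on opposite sides of 0, each within its error.

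Megakaryocyte and platelet markers gave the same array order as the brighter Alox12 and Tbxas1 probes: MOTS-c 1, vehicle 3, MOTS-c 3, MOTS-c 2, vehicle 2 and vehicle 1, from high to low. This order is not particular to platelet markers, since the pathway genes of eicosanoid degradation and leukotriene conversion gave it too. For Alox12 it includes a near tie, at 2.01 on both MOTS-c 2 and MOTS-c 3. All 13 platelet markers had higher means with MOTS-c, with groups that overlapped for each and a median difference of 0.19, which was -0.40 within slide 2. Their summed level was 223, 156 and 160 with MOTS-c and 106, 138 and 230 with vehicle. Pf4, a chemokine stored in platelet granules and the brightest of them, differed by 0.11 ± 0.27. The part of platelet content in the Alox12 and Tbxas1 values was not tested.

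Within the leukotriene branch, the mean of every probe but that of Ltc4s was higher with MOTS-c, and the groups overlapped for all of them. Alox5, the 5-lipoxygenase that opens the branch, has 1 probe (chr6:116360326-116360385 of mm9, minus strand). Its levels were 0.43, 0.38 and -0.73 with MOTS-c and -1.13, -0.92 and -0.11 with vehicle. MOTS-c 3 lay among the vehicle values, and vehicle 3 lay above MOTS-c 3. The difference was 0.75 ± 0.39, and 0.13 within slide 2.

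Alox5ap, which presents arachidonic acid to Alox5, was read by probes at chr5:150099347-150099406 and chr5:150099572-150099631 of mm9. The brighter had levels of 2.99, 3.15 and 2.42 with MOTS-c and 1.81, 2.28 and 2.70 with vehicle. The other had 2.25, 2.42 and 1.71 with MOTS-c and 1.23, 1.67 and 2.00 with vehicle. On both probes vehicle 3 exceeded MOTS-c 3. The differences were 0.59 ± 0.28 and 0.49 ± 0.26, which became 0.15 and 0.12 within slide 2, and 0.36 and 0.29 without vehicle 1.

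Lta4h encodes the hydrolase that makes leukotriene B, an attractant of neutrophils. Its brighter probe (chr10:92947503-92947562 of mm9) had levels of 2.75, 2.85 and 2.45 with MOTS-c and 2.39, 2.20 and 2.79 with vehicle. The difference of 0.22 ± 0.20 turned to -0.11 within slide 2. Its dimmer probe (chr10:92926871-92926930) had levels of -2.12, -1.61 and -1.78 with MOTS-c and -2.41, -2.23 and -1.97 with vehicle, a difference of 0.36 ± 0.20 (0.13 within slide 2). Vehicle 3 again reached into the MOTS-c range on both.

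Ltc4s encodes the synthase of the cysteinyl leukotrienes, the other exit of the branch. It had levels of -0.57, -0.44 and -0.24 with MOTS-c and -0.30, -0.70 and -0.20 with vehicle. The difference was -0.014 ± 0.19, the smallest of the 17 probes, and -0.21 within slide 2. Of 10 tested mast cell and basophil markers, known carriers of this enzyme, 6 were higher and 4 lower with MOTS-c, with a median difference of 0.071 and a summed level of 4.31 to 6.78 with MOTS-c and 4.06 to 5.81 with vehicle.

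Alox5, both Alox5ap probes and the brighter Lta4h probe shared their 3 highest arrays, MOTS-c 1, MOTS-c 2 and vehicle 3, with the neutrophil markers and with the eosinophil markers. The neutrophil and eosinophil lists ranked all 6 arrays alike. The same 3 arrays were also highest for the mast cell and basophil markers, the other lipoxygenases and the leukotriene and lipoxin receptor class. All 13 neutrophil markers had higher means with MOTS-c, with overlapping groups for each and a median difference of 1.05, which was -0.014 within slide 2. Their summed level was 505, 604 and 173 with MOTS-c and 226, 122 and 453 with vehicle. S100a9, the brightest of them, had levels of 7.83, 8.02 and 6.57 with MOTS-c and 7.01, 6.31 and 7.77 with vehicle. The part of neutrophil, eosinophil, or mast cell and basophil content in the Alox5, Alox5ap and Lta4h values was not tested.

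**Figure D2:**
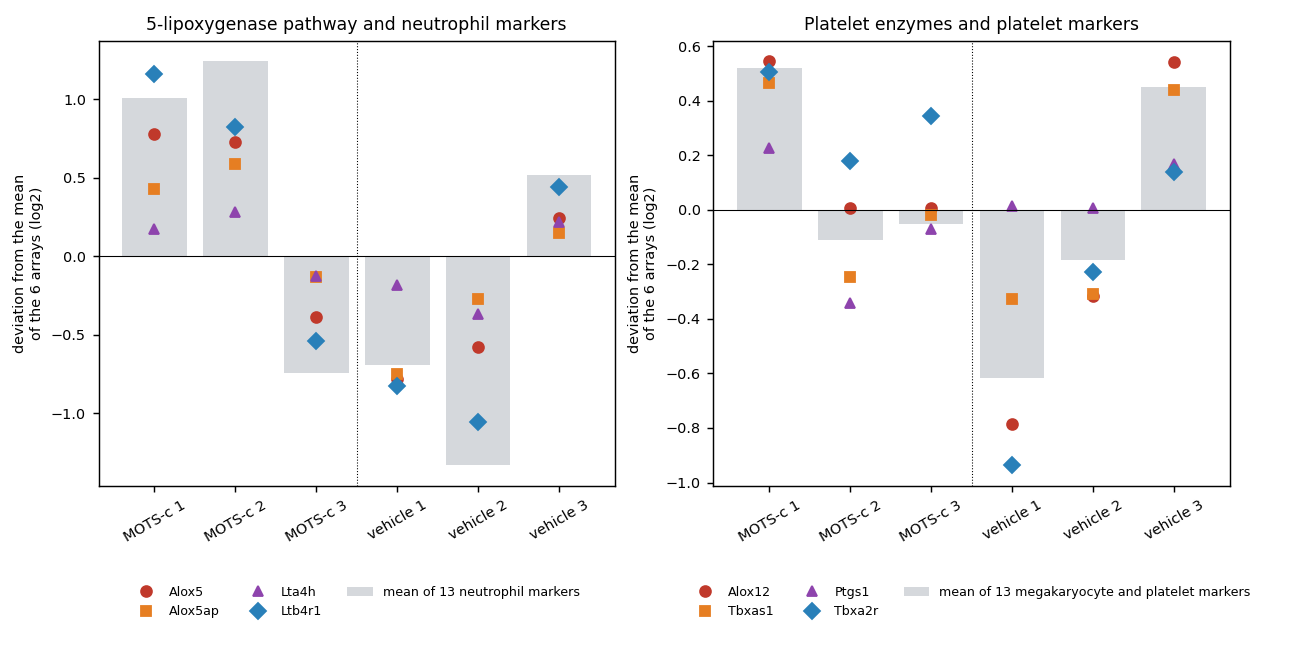
Deviation of each gene from its own mean over the 6 arrays (log2, points) beside the mean deviation of a marker list (grey bars), with MOTS-c arrays left of the dotted line and vehicle arrays right of it. Left, Alox5, Alox5ap, Lta4h and the leukotriene B receptor Ltb4r1 are positive on MOTS-c 1, MOTS-c 2 and vehicle 3, as are the 13 neutrophil markers. Right, Alox12, Tbxas1 and Ptgs1 are highest on MOTS-c 1 and vehicle 3, as are the 13 platelet markers. The thromboxane receptor Tbxa2r is shown there too, and on vehicle 3 it lies below each MOTS-c array.

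Neither cyclooxygenase had groups that were apart. Ptgs1, the constitutive form, had levels of 2.20, 1.63 and 1.90 with MOTS-c and 1.99, 1.98 and 2.14 with vehicle on its brighter probe (chr2:36107644-36107703 of mm9). The MOTS-c values spanned the vehicle values, with a difference of -0.12 ± 0.18. Its dimmer probe (chr2:36096929-36096988) differed by -0.26 ± 0.27 and by 0.15 within slide 2.

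Ptgs2, the form induced in inflammation, was near the detection limit in the spleen. As for Alox15, the authors' deposited table leaves its probe out, and no sequence or position is given. Its levels were -4.71, -5.46 and -5.13 with MOTS-c and -4.73, -6.02 and -6.76 with vehicle. Signals were 34.9, 20.5 and 26.5 with MOTS-c and 25.5, 13.0 and 7.85 with vehicle, where vehicle 1 alone was well above background. Vehicle 1 exceeded MOTS-c 2 and MOTS-c 3. The difference of 0.74 ± 0.49 was 1.66 within slide 2, where vehicle 3 is the dimmest array, and 0.21 with the dim vehicle arrays set to their detection limit. After normexp it was 0.030 or 0.13, so its size depends on how dim spots were handled.

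Ptges encodes the inducible prostaglandin E synthase that works with Ptgs2, and its 3 probes disagreed. The brightest (chr2:30744995-30745054 of mm9, minus strand) had levels of 4.67, 4.60 and 4.61 with MOTS-c and 4.81, 4.79 and 4.74 with vehicle. Every MOTS-c value lay below every vehicle value, by a difference of -0.15 ± 0.13. This small gap turned to 0.11 after quantile normalization and 0.079 after normexp and quantile normalization. In the authors' deposited table the same probe has a signed fold of 1.08, higher with MOTS-c.

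The second Ptges probe (chr2:30748214-30748273) had levels of -0.26, -0.23 and -0.52 with MOTS-c and -2.06, -0.80 and -0.62 with vehicle. All MOTS-c values lay above all vehicle values, and the difference of 0.83 ± 0.37 was 0.38 without vehicle 1, the lowest array. The third (chr2:30747838-30747897) had levels of -2.09, -2.47 and -2.47 with MOTS-c and -3.60, -2.37 and -2.38 with vehicle. Its difference of 0.44 ± 0.34 was 0.033 without vehicle 1, so it rested on vehicle 1. The brightest probe shares a run of 16 bases with 4 other probes of the deposited table, the second with 1 and the third with 0, and 15.3% of the 31692 probes in that table share such a run. Whether other transcripts add to the brightest probe's signal was not tested.

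**Figure D3:**
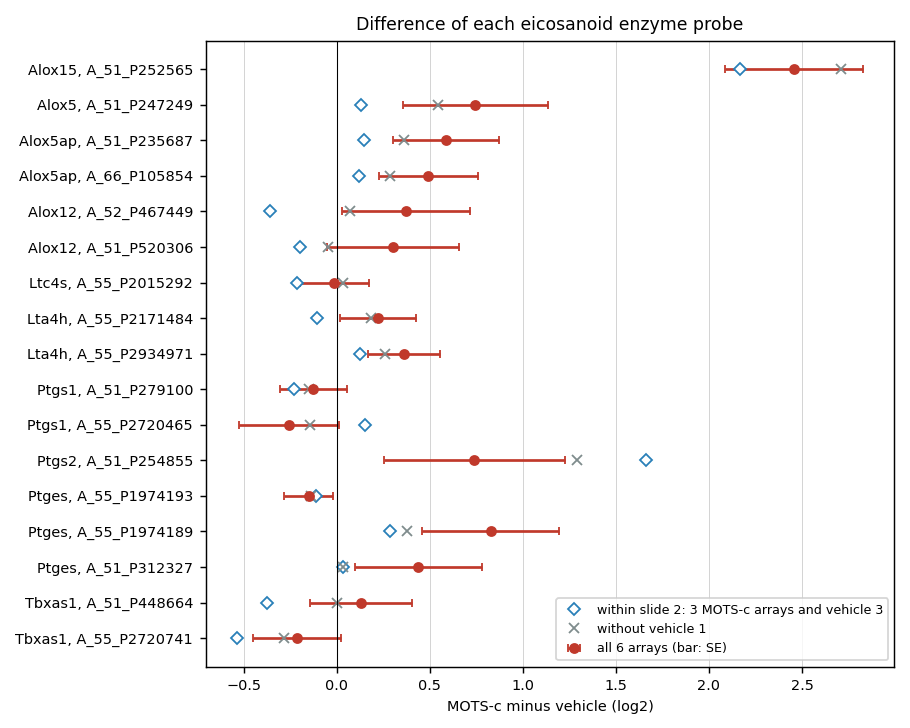
Difference of MOTS-c minus vehicle (log2, points with bars of 1 SE) for each of the 17 probes, beside the same difference within slide 2 and without vehicle 1. Alox15 lies at 2.46, 2.17 and 2.71 under the 3 comparisons. The other probes lie between -0.26 and 0.83 over all arrays, and many move towards or past 0 when the vehicle arrays change.

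Across the 17 probes, 12 had a higher mean with MOTS-c and 5 a lower one, with a median difference of 0.36, against 52.2% higher, 47.8% lower and a median of 0.024 over all 33734 tested probes. All 17 entered the fit, 15 of them well above background on all 6 arrays. Alox15 and Ptgs2 entered only through the MOTS-c group, where they are brighter, and could not have entered as lower in it. Over the other 15 probes, 10 were higher and 5 lower, with a median of 0.30. Within slide 2, 9 of the 17 were higher and 8 lower, with a median of 0.036 against 0.043 over all tested probes. Vehicle 1 was the lowest of the 6 arrays for 9 of the 17 probes, and without it the median was 0.073.

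By limma with Benjamini-Hochberg adjustment over all tested probes, 0 of the 17 reached an adjusted p under 0.05, where 2 of 33734 did (0.00593%). At an unadjusted p under 0.05 stood 1 probe, Alox15, as higher and 0 as lower, where 11.3% of all tested probes were higher and 14.1% lower. The groups did not overlap for 2 probes higher with MOTS-c (Alox15 and the second Ptges probe) and for 1 lower (the brightest Ptges probe), where the shares over all tested probes were 16.3% and 18.5%. These counts are given as a description, since the members were chosen with this contrast known.

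The rest of the pathway was read through a list of 58 genes, of which 49 were tested, each by its brightest probe. Of these 33 had higher and 16 lower means with MOTS-c, with a median difference of 0.21, and 0 passed an adjusted p under 0.05 by limma. Ggt1 and Ptgdr2 entered only through the MOTS-c group and could not have entered as lower in it. The smallest adjusted p was 0.082, for Plaat3. At an unadjusted p under 0.05, 9 genes stood (5 higher, 4 lower), or 18.4%, against 25.4% of all tested probes. The groups did not overlap for 7 higher and 5 lower of the 49 genes, against 16.3% and 18.5% of all tested probes.

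Genes listed under arachidonic acid release, Pla2g7 and Daglb among them, were split, 7 higher and 6 lower of 13. Plaat3, a phospholipase of adipocytes and other cells, had levels of 3.04, 3.09 and 2.73 with MOTS-c and 4.14, 3.51 and 4.18 with vehicle, a difference of -0.99 ± 0.22. Mgll, which frees arachidonic acid from the endocannabinoid 2-arachidonoylglycerol, had levels of 2.55, 2.57 and 2.75 with MOTS-c and 3.75, 3.10 and 3.36 with vehicle, a difference of -0.78 ± 0.20. The groups did not overlap for either gene. The secreted phospholipase Pla2g12a differed by -1.04 ± 0.29 (-0.52 within slide 2), also without overlap, and the cytosolic Pla2g4c by -1.25 ± 0.48 with overlapping groups, and by -0.73 without vehicle 1, its highest array.

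Pla2g2d, a secreted phospholipase of lymphoid tissue, was on the other side of 0, with levels of 2.95, 2.66 and 2.88 with MOTS-c and 1.67, 2.37 and 2.48 with vehicle, a difference of 0.65 ± 0.24 (0.35 within slide 2 and 0.40 without vehicle 1). All 8 erythroid precursor markers were lower on each MOTS-c array than on each vehicle array, with a summed level of 175, 172 and 148 with MOTS-c and 535, 301 and 391 with vehicle. The same held for all 8 dividing cell markers, with a summed level of 121, 152 and 120 with MOTS-c and 364, 225 and 275 with vehicle. Over all tested probes 18.5% were apart in that direction. The part of red cell precursors or of dividing cells in the lower phospholipase values was not tested.

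Of 4 other lipoxygenases 2 were tested, and Aloxe3 differed by 0.32 ± 0.30 and Alox8 by 0.30 ± 0.27, with overlapping groups. Without vehicle 1, their lowest array, the differences were 0.048 for Aloxe3 and 0.012 for Alox8, and within slide 2 that of Aloxe3 turned to -0.17. Of the other prostanoid synthases 5 of 7 were higher, among them Hpgds, which makes prostaglandin D, by 0.92 ± 0.44 (-0.063 within slide 2 and 0.53 without vehicle 1) and Ptgis, the prostacyclin synthase, by 0.44 ± 0.21. Ptges3, a chaperone partner that can also make prostaglandin E, differed by -0.25 ± 0.15 (-0.091 within slide 2). Among genes of degradation and leukotriene conversion, 10 of 13 were higher with MOTS-c. The groups did not overlap for 4 higher genes, Cyp4f13 (0.75 ± 0.20), Cyp4f18 (0.58 ± 0.24), which in mice inactivates leukotriene B, the epoxide hydrolase Ephx1 (0.36 ± 0.17) and Ggt1 (1.17 ± 0.64), which converts cysteinyl leukotrienes. They did not overlap for 1 lower gene either, the reductase Ptgr1 (-0.35 ± 0.17). Over all tested probes the groups were apart for 16.3% as higher and 18.5% as lower. Without vehicle 1 the difference was 0.33 for Cyp4f18 and 0.34 for Ggt1, and within slide 2 it was 0.29 and 0.33. The median of the class was 0.23, and 0.0042 within slide 2. The transporters differed by -0.41 ± 0.20 for Abcc4, -0.34 ± 0.20 for Abcc1 and -0.031 ± 0.15 for Slco2a1. Without vehicle 1, the highest array for Abcc4 and Abcc1, these were -0.23, -0.15 and 0.010, and the median of -0.34 was -0.044 within slide 2. A second Abcc1 probe differed by 0.27, and the other Slco2a1 probes by -0.19 to 0.043.

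All 5 tested genes listed as leukotriene and lipoxin receptors, Gpr31b among them, had higher means with MOTS-c, with overlapping groups, though a second Gpr31b probe differed by -0.76. Their median difference of 0.83 was 0.038 within slide 2, where Cysltr1 (-0.18) and Cysltr2 turned. Ltb4r1, through which leukotriene B attracts neutrophils, had levels of 0.87, 0.52 and -0.83 with MOTS-c and -1.13, -1.35 and 0.15 with vehicle, the same 3 arrays on top as for Alox5. Its difference of 0.96 ± 0.53 was 0.038 within slide 2. Fpr2, the lipoxin receptor, differed by 0.83 ± 0.36 and the cysteinyl leukotriene receptor Cysltr2 by 0.88 ± 0.53, which was 0.55 and -0.32 within slide 2.

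Of 6 tested prostanoid receptors 4 were higher with MOTS-c. Tbxa2r, the thromboxane receptor of platelets, had levels of 1.02, 0.69 and 0.86 with MOTS-c and -0.42, 0.29 and 0.66 with vehicle, without overlap and with a difference of 0.68 ± 0.28 (0.20 within slide 2 and 0.39 without vehicle 1). Ptgdr2, the prostaglandin D receptor of eosinophils and type 2 T cells, was well above background on the MOTS-c arrays and on 0 of the vehicle arrays. With the vehicle arrays set to their detection limits, each the lowest signal well above background on its array, Ptgdr2 was 1.22-fold higher with MOTS-c. That fold carries no error. In the main fit its adjusted p was 0.128 by limma. Having entered the fit only through the MOTS-c group, it could not have entered as lower in it. Ptger3, a prostaglandin E receptor, differed by -1.07 ± 0.48, and by -0.47 without vehicle 1.

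**Figure D4:**
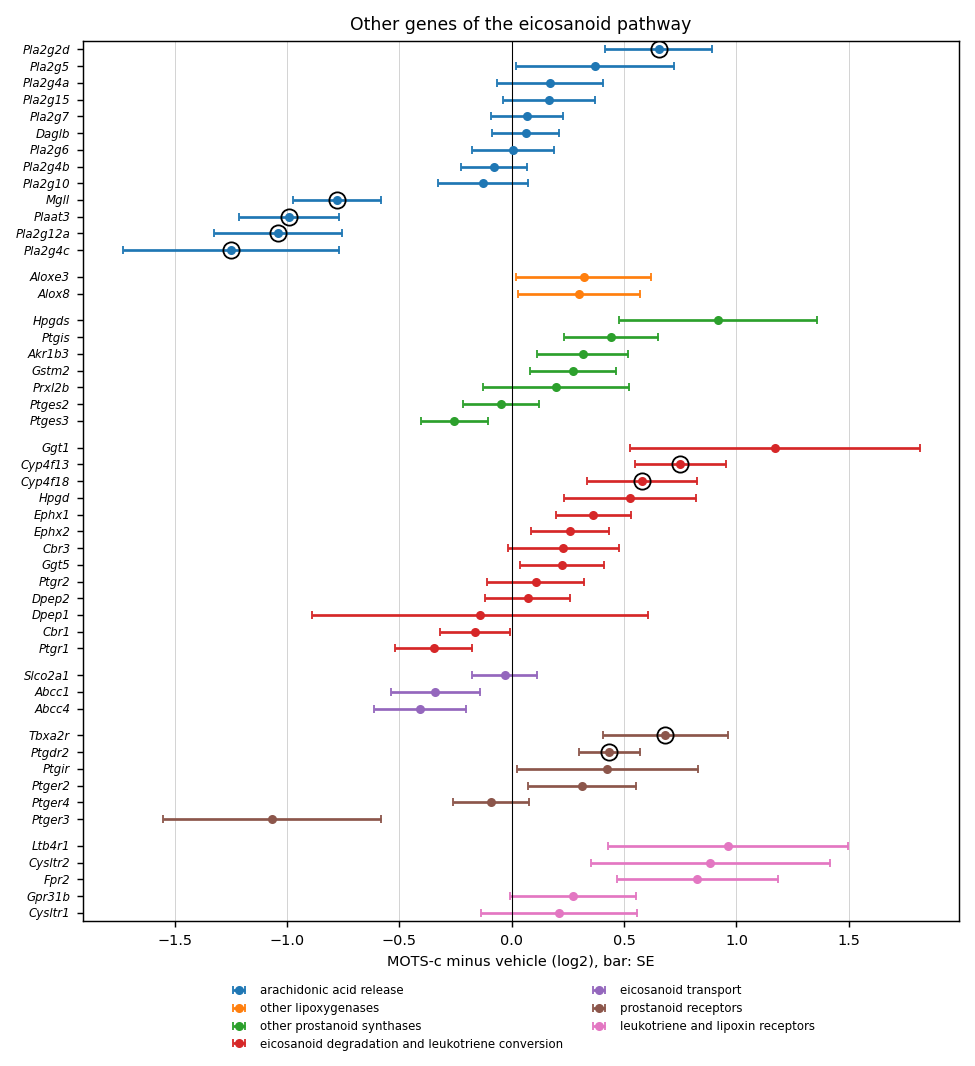
Difference of MOTS-c minus vehicle (log2) for the 49 tested pathway genes, coloured by class, with bars of 1 SE. Black rings mark an unadjusted p under 0.05 by limma, reached by 9 genes, and 0 passed after adjustment. The 5 genes listed as leukotriene and lipoxin receptors lie right of 0, with a median of 0.83 that was 0.038 within slide 2. Pla2g4c, Pla2g12a, Plaat3 and Mgll lie left of 0.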

How the data were processed

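Processed signal intensities of 6 arrays were extracted by the authors with Agilent Feature Extraction 11.0.1.1, per the file headers, with background subtracted within each array and no normalization between arrays. The authors' deposited table gives log2 values whose quantiles are equal on the 6 arrays, a score per probe (the signed fold, MOTS-c over vehicle) and a p-value with its adjustment, for 31692 probes. Its signals equalled the scanner output for 100% of probes (relative tolerance 0.0001). All adjusted p-values in the authors' deposited table lie at or above 0.370, and 4261 of its p-values lie under 0.05.

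Outlier spots (97 to 145 an array) were left out, and spots of a probe were averaged on the log2 scale. Symbols came from the table's gene ID (26241 probes), an accession matched to RefSeq (11857) or the table's symbol (900), and 17607 probes have none. A probe was fitted where every array had a value and 1 or both groups had it well above background on 3 of 3 arrays. These 33734 probes were fitted with limma 3.58.1 in R 4.3.3 (lmFit, eBayes, two-sided, Benjamini-Hochberg, threshold 0.05). Alternatives were quantile normalization, normexp (offset 50, on median rather than mean spot signals, since the files used give no mean), other filters, the brightest probe of a gene, the slide or replicate number as a block, slide 2 alone, the deposited log2 values and leaving out each array. The fit was tested on simulated data. Members and gene lists were chosen with earlier results of these data known. The genes named are all members, in each pathway class the 3 with the smallest unadjusted p and any under 0.05, up to 3 of the brightest of a marker list, and the 5 named genes most like Alox15. The non-overlapping and the lower peritoneal macrophage markers, Saa3, Gata6 and Il5ra were named after their values were seen. So were Ggt1, Ptgr1, Cysltr1 and the second probes of pathway genes.

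Groups and numbers come from sample titles. For vehicle 3 and MOTS-c 3 the descriptions give another number. Same-numbered samples did not deviate together (correlations of -0.17, 0.0064 and -0.090 over 33734 probes), so the numbers were not used as pairs. No label says that each sample is another mouse, and the p-values therefore reflect the spread among these samples alone. Coordinates of probes are of mm9, per the file headers. The place of a probe in exons or untranslated regions was not determined.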

Additional observations from a re-analysis of the deposited data

How the results depend on the processing

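The Alox15 difference was higher with MOTS-c in all 15 alternatives that gave a value, from 0.86 to 2.71. These are not 15 separate checks. With no filter, the brightest probe or the replicate block its main difference comes back unchanged. The slide block gives the same difference as slide 2 alone. Among the 15 is the setting of dim vehicle arrays to their detection limit. The same direction in every alternative was found for 9 of the 17 probes, and 8, with main differences of -0.26 to 0.37, turned in at least 1. The count of probes past the adjusted threshold, 2 over all probes, was 584 with normexp and the 75th percentile, 1 with the slide as a block, 0 with normexp and quantile normalization, with the filter on all arrays, with no filter, within slide 2 and with the deposited values, and 0 to 1113 when an array was left out (1113 without vehicle 2, 39 without vehicle 3). The count of enzyme probes past it, 0, was 1 (Alox15) with normexp and the 75th percentile, and 0 to 1 when an array was left out, with Alox15 passing without vehicle 2. Of the pathway genes 0 to 1 passed when an array was left out, Plaat3 without vehicle 2. Enzyme probes at an unadjusted p under 0.05, 1 in the main setting, numbered 2 with quantile normalization, 3 with either use of normexp, 0 with the filter on all arrays, which removes Alox15, 2 with the slide as a block and within slide 2, and 1 to 6 when an array was left out (6 without vehicle 3, 4 without MOTS-c 3). With the deposited values, the enzyme probe at an unadjusted p under 0.05 by limma was of Alox5ap, and Alox15 has no deposited value. The median difference of the enzyme probes, 0.36, was 0.036 with the slide as a block and within slide 2, and 0.073 (without vehicle 1) to 0.48 when an array was left out. With the replicate block 0 probes passed over all probes and 0 among the enzymes, where the replicate numbers do not pair the samples. Setting dim vehicle arrays to their detection limit was chosen after seeing the data. Signal over background limits Alox15 and Ptgs2 in vehicle. The other causes of these shifts were not tested.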
